A study of Mus musculus with 10 samples.

Results

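The 34 genes described here are the mouse counterparts of genes that are mutated in human hereditary ataxias. They were taken by name, from a list of disease genes, among the 55536 mouse genes in the count tables, and all 34 names matched 1 gene each. RNA had been sequenced from dissected cerebellum and cerebral cortex of 5 mice, so that 10 libraries were available. All mice were 1 year of age and on a C57BL/6J background, and the series asked how loss of Snx14, itself the gene of a recessive cerebellar ataxia, changes transcription in these regions. The KO mice carried a frameshift deletion of 1 bp in exon 14 of both copies of Snx14, in every cell of the body. KO 1 and KO 2 gave 2 cerebellum and 2 cortex libraries. The 3 control mice gave 3 libraries of each tissue and were of mixed genotype, since controls 1 and 2 were Het, with 1 mutant copy, and control 3 was WT. Each mouse gave both tissues.

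Hereditary ataxias are disorders of balance and coordination in which the cerebellum, and often its Purkinje neurons, is damaged. The genes behind them have little in common at the molecular level. Some are ion channels and receptors that Purkinje neurons hold in large amounts, while others serve every cell, in transcription, translation, protein quality control, DNA break repair or mitochondria. The genes described here belong mainly to the second kind. They were ordered by role into genes with glutamine repeats (5 genes), genes with repeats in noncoding sequence (5), other dominant ataxia genes (6), DNA break repair genes (4), mitochondrial genes (4) and other recessive ataxia genes (10). For comparison, 20 ataxia genes of channels and signalling, 33 further ataxia genes and 20 Purkinje markers were followed in the same fits.

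Library totals lay between 16088310 and 22975355 counts, and the lowest count of a member in any library was 39. The tissue labels were checked with marker genes on a scale of CPM, counts scaled to a common library size, set over all 10 libraries. The summed level of 20 Purkinje markers was 6022 to 13459 CPM in the cerebellum libraries and 1833 to 2359 CPM in the cortex libraries, and that of 9 cortical excitatory markers was 67.8 to 82.9 and 469 to 714 CPM. Snx14 stood at 44.3, 41.5 and 76.1 CPM in the cerebella of controls 1 to 3 and at 15.9 and 18.0 CPM in those of the KO mice. In cortex it stood at 33.1, 33.8 and 48.8 CPM in the controls with 14.5 and 15.5 CPM in the 2 KO mice, so both KO libraries lay below all 3 controls in each tissue. Control 2 stood apart. Of the 3 controls it was the one farthest from the mean of the other two for 46.0% of the genes tested in cerebellum and 52.5% in cortex, and for 13 and 18 of the 34 members. It was the lowest control in both tissues for 9 members and the highest in both for 7.

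All 34 members were expressed in both regions. Levels of different genes are compared here as RPKM, the counts scaled to library size and to the length of the exons, in control mice. The median over the members was 6.05 RPKM in both cerebellum and cortex. Eef2, the elongation factor that moves the ribosome along the mRNA, was the highest at 368 ± 10.6 RPKM in cerebellum and 341 ± 12.1 RPKM in cortex (SD, n = 3). Atxn10 at 84.5 ± 2.73 and 86.9 ± 3.04 RPKM and Stub1, the ubiquitin ligase CHIP that acts on misfolded proteins, at 58.2 ± 3.77 and 53.2 ± 1.75 RPKM (SD, n = 3) came next. Stub1 shares 42.3% of its exonic bases with Jmjd8, and reads from the shared bases were counted for both genes. At the other end in cerebellum Samd9l, an interferon-induced gene that restrains growth, stood at 0.656 ± 0.154 RPKM in cerebellum and 0.997 ± 0.367 RPKM in cortex (SD, n = 3). It was the 1 member under 1 RPKM in cerebellum, while Samd9l, Plekhg4 and Ttpa were under it in cortex. A level over 10 RPKM was found for 13 members in cerebellum and 11 in cortex.

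**Figure D1:**
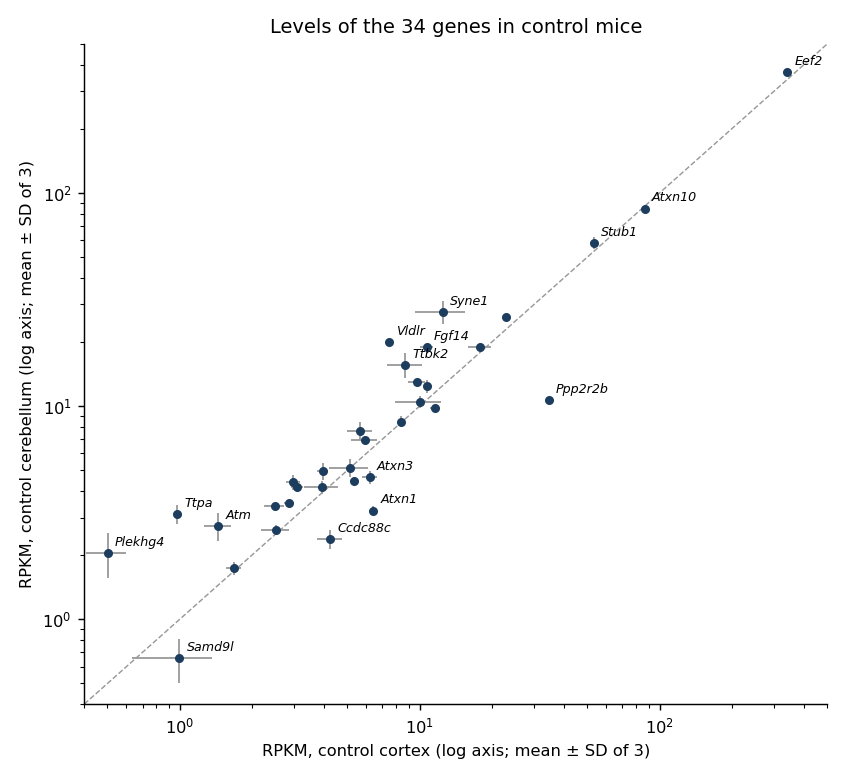
Mean RPKM of each of the 34 genes in control cortex (horizontal, log axis) and control cerebellum (vertical, log axis), with bars of 1 SD over 3 mice and a dashed line of equal levels. Most genes lie near the line over a range from under 1 RPKM for Samd9l to 368 RPKM for Eef2, with Plekhg4, Ttpa and Vldlr above it and Ppp2r2b and Atxn1 below it.

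The polyglutamine genes were the first group. Expansion of a run of CAG codons in their human counterparts causes disease, and the mutant proteins form aggregates. Atxn1 encodes a nuclear co-repressor, Atxn2 an RNA-binding protein, Atxn3 a deubiquitinase, Atxn7 a subunit of the SAGA chromatin complex and Tbp the TATA-binding protein. The longest run of glutamine codons in the coding sequence of each mouse gene, from GENCODE M21 transcripts on GRCm38, is shown because a run of such codons in the human counterpart defines the group. The run is in capitals between 15 bases on each side, and it was found by its letters alone, so it need not be the place of the human repeat.
Atxn1: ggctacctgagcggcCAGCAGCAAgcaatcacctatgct
Atxn2: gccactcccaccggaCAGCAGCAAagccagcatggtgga
Atxn3: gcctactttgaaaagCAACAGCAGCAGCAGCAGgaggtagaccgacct
Atxn7: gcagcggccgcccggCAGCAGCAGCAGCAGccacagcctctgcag
Tbp: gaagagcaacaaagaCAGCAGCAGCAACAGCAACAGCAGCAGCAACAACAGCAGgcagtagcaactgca
The runs hold 3 glutamine codons in Atxn1 (exon 7, chr13:45567080-45567088, minus strand), 3 in Atxn2 (exon 22, chr5:121810946-121810954, plus strand), 6 in Atxn3 (exon 10, chr12:101926563-101926580, minus strand), 5 in Atxn7 (exon 2, chr14:14013156-14013170, plus strand) and 13 in Tbp (exon 4, chr17:15504391-15504429, plus strand). The run of Tbp was built of 9 CAG and 4 CAA codons, and that of Atxn7 of CAG codons alone.

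In the cerebellum none of the 5 polyglutamine genes passed the test between KO and control mice. The test here and below is the quasi-likelihood F test of edgeR within a tissue, log2 differences are KO minus control, and a gene was called at an adjusted p under 0.05 and an absolute log2 difference over 0.5. In cerebellum 302 of 19447 tested genes were called, which is 1.55%, and 0 of the 34 members. DESeq2 called 427 of all genes and also 0 members. An unadjusted edgeR p under 0.05 was found for 3 of the 34, against 13.4% of all tested genes. The log2 differences of the polyglutamine genes ran from -0.15 for Tbp to 0.11 for Atxn1. Tbp stood at 55.6, 65.0 and 59.1 CPM in controls 1 to 3 against 52.9 and 54.7 CPM in KO 1 and KO 2. Both KO libraries thus lay below all controls, by a small margin to control 1. Atxn1, Atxn2, Atxn3 and Atxn7 had KO levels that overlapped those of the controls. Bulk tissue does not separate a smaller number of cells of one type from less RNA per cell, and this holds for every level given here.

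The genes whose human counterparts carry a disease repeat in an intron or near the start of transcription had a median log2 difference of -0.04 and a range from -0.26 to 0.10, and none of the 5 was called. Dab1, the adaptor protein that carries the Reelin signal into migrating neurons, had the lowest value of all 34 members. It stood at 88.7, 77.6 and 82.0 CPM in the control cerebella and at 76.9 and 61.6 CPM in KO 1 and KO 2. KO 2 was clearly the lowest library, and KO 1 lay just under control 2. The log2 difference was -0.26 (SE 0.102, unadjusted p 0.033 and adjusted p 0.314 by edgeR), and it was -0.42 without KO 1 and -0.11 without KO 2. Fgf14, which binds voltage-gated sodium channels inside the cell, was at 80.5, 77.9 and 78.6 CPM in the controls with 83.5 and 61.1 CPM in the 2 KO mice, which lay on both sides of the controls. Atxn10 was at 161, 170 and 160 CPM in the controls against 177 and 173 CPM in KO 1 and KO 2, a log2 difference of 0.10 with both KO libraries highest. Ppp2r2b, a regulatory subunit of the phosphatase PP2A, and Nop56, a core protein of the particles that methylate ribosomal RNA, had KO levels that overlapped the controls.

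Among the other dominant ataxia genes Samd9l, Ccdc88c and Eef2 had the highest values. Eef2 stood at 1185, 1254 and 1234 CPM in the controls and at 1315 and 1347 CPM in the KO cerebella, a log2 difference of 0.12 (SE 0.085, adjusted p 0.629 by edgeR). Samd9l stood at 3.96, 2.60 and 4.12 CPM in the controls with 3.90 and 5.27 CPM in the 2 KO mice, and its log2 difference of 0.37 (SE 0.251, adjusted p 0.610 by edgeR) came to 0.19 without control 2, to 0.13 without KO 2 and to 0.57 without KO 1. Ccdc88c, which binds Dishevelled in Wnt signalling, was at 30.3, 25.6 and 25.4 CPM in the controls against 30.0 and 29.8 CPM in KO 1 and KO 2, a log2 difference of 0.14 (SE 0.105, adjusted p 0.656 by edgeR), with control 1 above both KO libraries and a value of 0.23 without control 1. Ttbk2, a kinase needed to start the primary cilium, Stub1 and Plekhg4, an exchange factor for small GTPases, had log2 differences between -0.03 and -0.02.

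The DNA break repair and mitochondrial genes are of use to every cell type. Atm, the kinase that answers to double-strand breaks, was at 30.4, 23.5 and 31.1 CPM in the control cerebella with 27.7 and 26.2 CPM in the 2 KO mice, all within the range of the controls. Aptx and Tdp1, which clean blocked DNA ends, and Xrcc1, the scaffold of single-strand break repair, had log2 differences from -0.09 to 0.02. The 4 mitochondrial genes all had negative values, with a median of -0.08. Spg7, a subunit of the m-AAA protease of the inner membrane, stood at 57.2, 51.8 and 59.3 CPM in the controls against 46.8 and 49.5 CPM in KO 1 and KO 2. The groups did not overlap, and the log2 difference was -0.22 (SE 0.082, unadjusted p 0.027 and adjusted p 0.286 by edgeR). Its partner in the protease, Afg3l2, was at 83.0, 78.8 and 89.0 CPM in the controls with 81.0 and 76.9 CPM in the 2 KO mice, which overlapped. Pmpca, a subunit of the peptidase that cleaves import signals off mitochondrial proteins, and Coq8a, which is needed for coenzyme Q, had log2 differences of -0.07 and -0.04.

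The other recessive ataxia genes held the member with the smallest p. Vldlr, a Reelin receptor that acts upstream of Dab1, stood at 203, 194 and 203 CPM in the control cerebella against 178 and 169 CPM in KO 1 and KO 2. The 3 controls were close together and both KO libraries lay below them. The log2 difference was -0.21 (SE 0.061, 95% interval -0.35 to -0.07, unadjusted p 0.0085), with an adjusted p of 0.163 by edgeR and 0.097 by DESeq2, so Vldlr did not pass over all genes tested. Ttpa, the transfer protein for vitamin E, was at 9.76, 11.9 and 10.9 CPM in the controls with 9.22 and 9.34 CPM in the 2 KO mice, a log2 difference of -0.23 (SE 0.143, adjusted p 0.576 by edgeR). Ano10, of the anoctamin family, was at 16.2, 15.9 and 14.7 CPM in the controls against 17.4 and 17.7 CPM in KO 1 and KO 2, a log2 difference of 0.17 (SE 0.110, adjusted p 0.594 by edgeR). The remaining genes of this group, Syne1, Wwox, Rubcn, Sil1, Cwf19l1, Wdr81 and Gdap2, had values from -0.10 to 0.05. Syne1 encodes a giant protein of the nuclear envelope, Rubcn a brake on autophagy, Sil1 a co-chaperone of the endoplasmic reticulum and Wdr81 a protein of endosome traffic.

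Over all 34 members the median log2 difference in cerebellum was -0.02, against 0.00 over all tested genes, with 20 negative and 14 positive values. In 9 members the KO and control libraries did not overlap, 6 with KO lower (Dab1, Ttpa, Spg7, Vldlr, Tbp and Pmpca) and 3 with KO higher (Atxn10, Eef2 and Ano10). All tested genes gave 15.5% with KO lower and 14.7% with KO higher, or 30.2% in all, and the members gave 26.5%. The 95% interval of the difference lay between -0.5 and 0.5 for 32 members and reached past this span for Ttpa, down to -0.56, and Samd9l, up to 0.95. The interval left out 0 for Dab1, Spg7 and Vldlr.

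The members were next set beside Purkinje genes. The 20 Purkinje markers had a median log2 difference of -0.95 in cerebellum with quartiles at -1.18 and -0.73, and 18 of 20 were called lower. The study had named Calb1, Pcp2, Car8 and Rgs8 of this list as lower in KO cerebella at this age. The fall of the markers thus serves as a reference here and is not an independent result. Their summed level was 11374 to 13459 CPM in the control cerebella and 6022 to 6169 CPM in the KO cerebella. No member lay within this range, defined as a value at or below the upper quartile with both KO libraries below all controls, and the 95% intervals of all 34 members were above the upper quartile. The same was true of 15877 of the 19447 tested genes, so it is not a trait of the members alone. The summed levels of other cell type markers differed as well. In the KO cerebella 10 microglia markers summed to 315 to 320 CPM against 209 to 242 CPM in controls, and 10 astrocyte and Bergmann glia markers to 4359 to 4500 against 3802 to 4002 CPM, with 2 and 3 of them called higher. Of the microglia markers 9 had positive log2 differences and 1 a negative one. The astrocyte and Bergmann glia markers went both ways, with 7 positive and 3 negative values, down to -0.43. All 7 fibroblast markers had positive log2 differences, with a median of 0.61 and 0 called, and choroid plexus markers summed to 61.4 CPM in 1 KO cerebellum and 2949 CPM in the other, against 1210 to 3436 CPM in controls. The part of these shifts in the members' values was not tested.

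**Figure D2:**
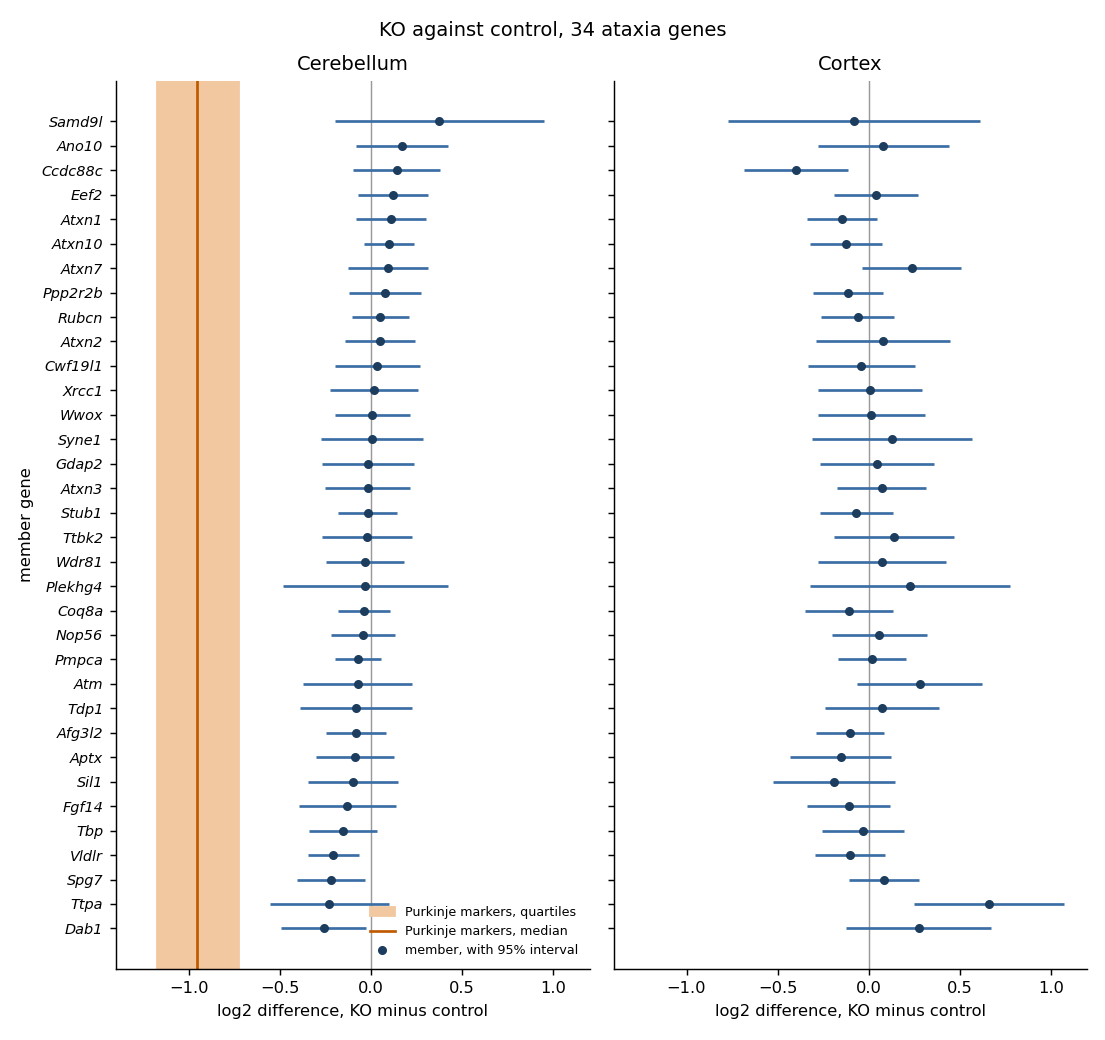
Log2 difference of KO minus control (points) with 95% interval (bars) for each of the 34 genes in cerebellum (left) and cortex (right), ordered by the cerebellum value, where the shaded band and line give the quartiles and median of 20 Purkinje markers in cerebellum. Every cerebellum interval lies to the right of the band, and in cortex Ttpa at 0.66 and Ccdc88c at -0.40 lie farthest from 0.

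The ataxia genes of channels and signalling gave other counts than the members, in lists chosen with earlier results of these data known. Of 20, 19 were tested in cerebellum and 7 were called, all lower in KO mice, with a median of -0.43, where 1.04% of all tested genes were called lower. Among them were Car8, a protein that modulates the IP3 receptor, at -1.35 (SE 0.098), and Itpr1, the IP3 receptor, at -1.16 (SE 0.170). Both are also on the list of Purkinje markers, as are 6 of the 20 in all, so the lists are not independent. The gene at the median of -0.43 was Slc1a3, which is on the list of astrocyte and Bergmann glia markers. The count was 3 without control 1, control 3, KO 1 or KO 2 and 10 without control 2. Of the 33 further ataxia genes 32 were tested, 0 were called by edgeR and 1 by DESeq2, and the median was -0.00. An unadjusted edgeR p under 0.05 was found for 8 of them, against 13.4% of all tested genes. Of these 8, KO was higher in 5 and lower in 3. Without overlap of the groups, KO was lower for 5 and higher for 9, against 15.5% and 14.7% of all tested genes.

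**Figure D3:**
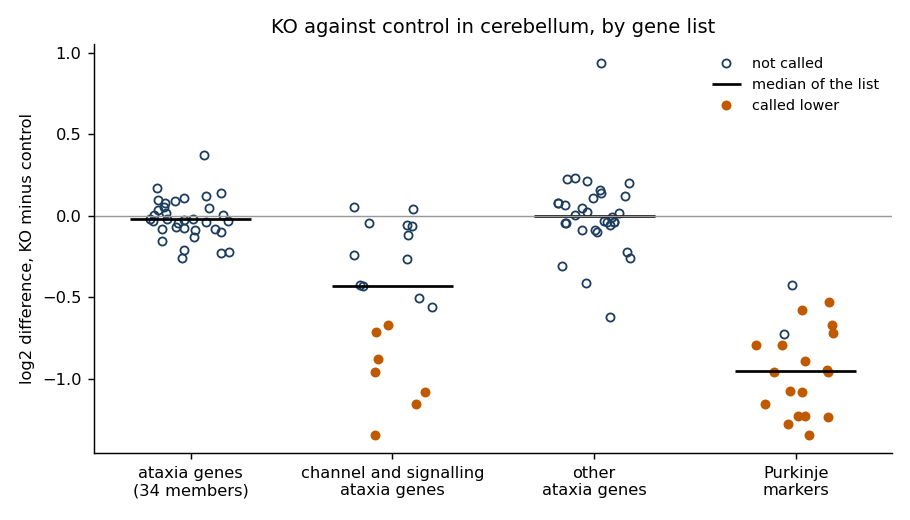
Log2 difference of KO minus control in cerebellum for each tested gene of 4 lists (columns; filled points were called lower, open points were not called, bars are medians). The members center on -0.02 with no called gene, the channel and signalling genes on -0.43 with 7 called, the other ataxia genes on -0.00 and the Purkinje markers on -0.95.

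In the cortex 0 of 34 members were called, as were 0 of 19202 tested genes, which is 0%. DESeq2 called 49 of all genes in cortex and 0 members. An unadjusted edgeR p under 0.05 was found for 2 members, against 5.93% of all tested genes. Snx14 itself, at -1.36 (SE 0.192), had an adjusted p of 0.754 by edgeR and 2.1e-06 by DESeq2 in this tissue. Ttpa had the highest value of the members. It stood at 3.35, 3.53 and 3.36 CPM in the control cortices and at 5.68 and 5.10 CPM in the KO cortices, so that the KO libraries were well apart from 3 nearly equal controls. The log2 difference was 0.66 (SE 0.177, 95% interval 0.25 to 1.07, unadjusted p 0.0064, adjusted p 0.754 by edgeR). For Ttpa DESeq2 gave a wider SE of 0.291 and an adjusted p of 0.843. Ccdc88c was the lowest, at 41.8, 53.0 and 50.1 CPM in the controls with 38.0 and 35.3 CPM in the 2 KO mice, with a log2 difference of -0.40 (SE 0.122, unadjusted p 0.012, adjusted p 0.768 by edgeR) that was -0.32 without control 2.

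Dab1, Atm and Atxn7 had the next highest cortex values, and each was higher in both KO libraries than in all controls. Dab1 was at 92.3, 60.0 and 86.3 CPM in the controls against 93.2 and 98.8 CPM in KO 1 and KO 2. Control 2 was by far the lowest library, and the log2 difference of 0.27 (SE 0.172) was 0.10 without it. Atm was at 15.8, 12.8 and 16.3 CPM in the controls with 18.2 and 18.1 CPM in the 2 KO mice, and its difference of 0.28 (SE 0.148) was 0.18 without control 2. Atxn7 was at 24.9, 23.1 and 25.8 CPM in the controls against 30.9 and 27.0 CPM in KO 1 and KO 2, a log2 difference of 0.24 (SE 0.117) that was 0.14 without KO 1 and 0.32 without KO 2. The lowest values after Ccdc88c were those of Sil1 at -0.19 (SE 0.144), Aptx at -0.15 (SE 0.119) and Atxn1 at -0.15 (SE 0.083). Atxn1 was at 87.7, 86.6 and 93.1 CPM in the controls with 81.3 and 79.6 CPM in the 2 KO mice, without overlap, while the groups overlapped for Sil1 and Aptx. Single libraries weighed on both of the latter, since Sil1 came to -0.09 without control 2, and Aptx to -0.02 without KO 1 and -0.30 without KO 2. The adjusted p by edgeR was between 0.754 and 0.996 for the 34 members.

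The median of the members in cortex was 0.02, with 15 negative and 19 positive values. The groups did not overlap for 11 members, which is 32.4% against 24.5% of all tested genes. In 6 of them KO was lower, against 12.6% of all tested genes, and in 5 KO was higher, against 11.9%. The 95% interval lay between -0.5 and 0.5 for 25 members. Vldlr, at 72.4, 76.9 and 75.4 CPM in the controls and 68.9 and 70.7 CPM in the KO mice, had both KO libraries lowest in this tissue as well, at a log2 difference of -0.10. Of 20 channel and signalling genes and 31 other ataxia genes tested in cortex, 0 were called by edgeR or DESeq2, and 3 and 2 of them had an unadjusted p under 0.05. The Purkinje markers had a median of -0.13 in this tissue. Of the 17 tested, KO was lower without overlap for 8 and higher for 1, against 12.6% and 11.9% of all tested genes. Among other markers, of which 0 were called, 8 endothelial genes had a median of 0.51, 7 fibroblast genes one of 0.51 and 10 oligodendrocyte genes one of -0.37, each with a single sign in its list. The 10 astrocyte and Bergmann glia markers had a median of 0.25, with 8 positive and 2 negative values. For 5 of these 10 both KO libraries lay above all controls. The part of these in the members' cortex values was not tested.

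**Figure D4:**
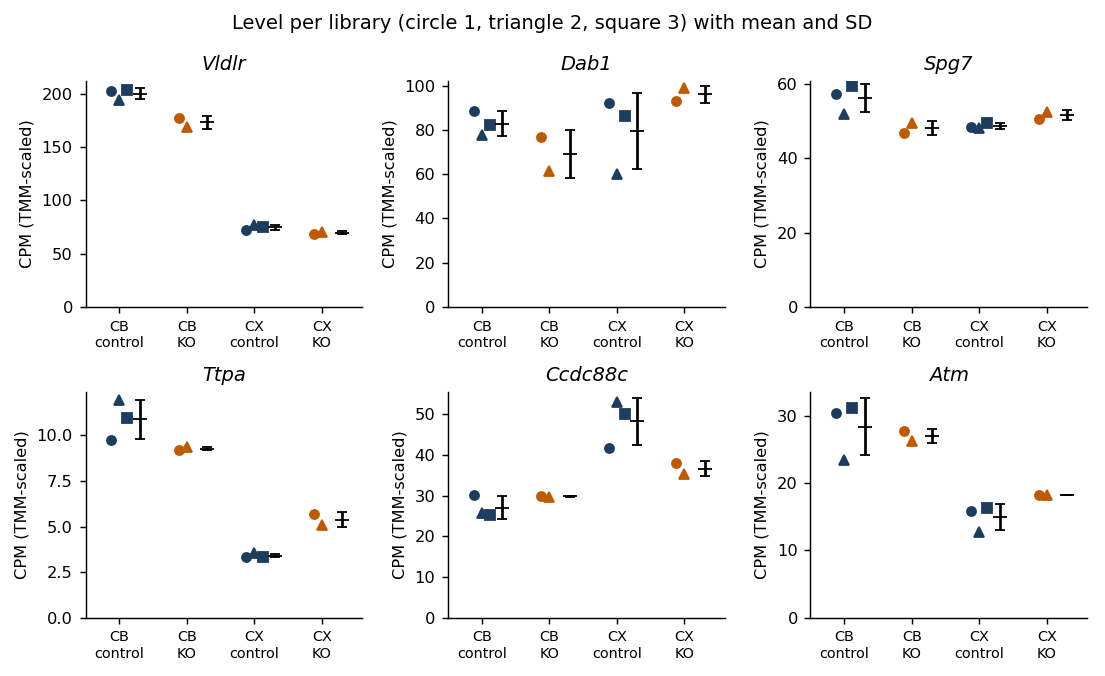
CPM, scaled within a tissue, of 6 members in each library of cerebellum (CB) and cortex (CX), with the mean and SD of each group beside the points (n = 3 controls in blue, n = 2 KO in orange; circles, triangles and squares are mice 1, 2 and 3 of a group). KO points lie below all controls in cerebellum for Vldlr, Dab1, Spg7 and Ttpa, and above all controls in cortex for Dab1, Spg7, Ttpa and Atm.

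The difference between the KO effects of the 2 tissues was tested in 1 fit of all 10 libraries, as cerebellum minus cortex. This fit did not pair the 2 tissues of a mouse, which the block fit did. Here 21 of 20614 genes were called, which is 0.102%, and 0 of 34 members by edgeR or DESeq2, with an unadjusted p under 0.05 for 6 members against 8.28% of all tested genes. Ttpa had the smallest p, with a difference of -0.87 (SE 0.203, 95% interval -1.31 to -0.42, adjusted p 0.183 by edgeR, 0.099 by DESeq2 and 0.131 with the mouse as a block). It was negative in the cerebellum and positive in the cortex. Ccdc88c had the opposite signs in the 2 tissues and a difference of 0.56 (SE 0.165, adjusted p 0.310 by edgeR). Dab1 at -0.51 (SE 0.230), Spg7 at -0.28 (SE 0.111), Atxn1 at 0.28 (SE 0.109) and Atxn10 at 0.25 (SE 0.092) also had intervals that left out 0. Atm at -0.33 (SE 0.208) and Samd9l at 0.47 (SE 0.426) were among the extremes, with intervals that held 0. The value of Samd9l was 0.11 without cortex control 1, 0.24 without cerebellum KO 2 and 0.29 without cerebellum control 2. Of the channel and signalling genes 1 of 20 was called, Car8 at -1.71 (SE 0.159, adjusted p 0.0037 by edgeR). With the mouse as a block 6 of them were called, in a fit that called 128 of all genes. DESeq2 called 5 of the 20, and 204 of all genes. None of 32 other ataxia genes was called by edgeR and 1 was by DESeq2, with an unadjusted edgeR p under 0.05 for 5.

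Cerebellum and cortex of the control mice were then compared in the same fit, with CPM scaled over all 10 libraries and log2 differences as cerebellum minus cortex. Of 34 members 12 were called, 7 higher in cerebellum and 5 lower. Among all tested genes 40.9% were called, 19.2% as higher and 21.8% as lower, so that the members were not called at a higher rate. The median of the members was 0.05 against 0.02 over all genes. Within the 5 mice 14 members were higher in the cerebellum of every mouse and 7 were higher in the cortex of every mouse, while 13 had no single direction.

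Plekhg4 had the largest excess in cerebellum. It stood at 11.1, 13.2 and 8.14 CPM in the cerebella of controls 1 to 3 and at 2.34, 2.79 and 3.44 CPM in their cortices, a log2 difference of 1.92 (SE 0.203, adjusted p 1.3e-05 by edgeR). Ttpa followed at 9.44, 11.5 and 10.5 against 3.48, 3.65 and 3.50 CPM, a log2 difference of 1.56 (SE 0.131, adjusted p 2.0e-06 by edgeR). In the KO mice the difference of Ttpa was 0.70 (SE 0.155), with 0.63 and 0.78 in the single mice against 1.44 to 1.65 in the controls, so the ranges did not meet. This was not particular to Ttpa. The ranges also did not meet for Atxn1, Atxn7, Tbp, Atxn10, Ppp2r2b, Dab1, Ttbk2, Eef2, Ccdc88c, Atm, Spg7 and Rubcn. The share over all genes was not computed. Vldlr was at 196, 187 and 196 CPM in cerebellum and 75.2, 79.6 and 78.7 CPM in cortex, a log2 difference of 1.31 (SE 0.060, adjusted p 1.6e-08 by edgeR) that was alike in the 5 mice, at 1.16 to 1.38.

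Syne1 at 1.04 (SE 0.162), Atm at 0.81 (SE 0.132), Ttbk2 at 0.73 (SE 0.128) and Fgf14 at 0.71 (SE 0.105) were the other members higher in cerebellum, each with an adjusted p of 5.8e-04 or less by edgeR. Syne1 was at 1215, 945 and 1083 CPM in the control cerebella and at 523, 402 and 653 CPM in the cortices, with control 2 lowest in each. Ttbk2 shares 29.9% of its exonic bases with Cdan1 on the same strand, and reads from the shared bases were counted for both genes. In KO mice the Atm difference was 0.48 (adjusted p 0.030 by edgeR), just under the fold needed for a call. The control cerebella enter both this comparison and that of KO with control, and the values of the 7 genes in the second were -0.03 for Plekhg4, -0.23 for Ttpa, -0.21 for Vldlr, 0.00 for Syne1, -0.07 for Atm, -0.02 for Ttbk2 and -0.13 for Fgf14.

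Ppp2r2b was the member most shifted to cortex. It stood at 39.7, 41.4 and 42.2 CPM in the control cerebella and at 144, 140 and 145 CPM in the cortices, with a log2 difference of -1.80 (SE 0.068, adjusted p 4.0e-09 by edgeR). Atxn1 was at 45.6, 43.3 and 41.1 CPM in cerebellum and 91.1, 89.7 and 97.1 CPM in cortex, a log2 difference of -1.09 (SE 0.070, adjusted p 2.1e-07 by edgeR). Ccdc88c was at 29.2, 24.7 and 24.4 CPM in cerebellum and 43.4, 54.8 and 52.2 CPM in cortex, a log2 difference of -0.94 (SE 0.105, adjusted p 1.9e-05 by edgeR). In the KO mice this fell short of the call, at -0.38 (SE 0.128). Atxn3 at -0.53 (SE 0.089, adjusted p 4.5e-04 by edgeR) and Samd9l at -0.71 (SE 0.272, adjusted p 0.045 by edgeR) lay near the limits of a call. Atxn3 came to -0.49 without control 2 in either tissue, under the fold. For Samd9l the single mice gave -1.06, -0.93 and -0.05, and its adjusted p rose to between 0.054 and 0.205 without any 1 of the 3 control cerebella or without cortex control 1.

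A further 8 members had an adjusted p under 0.05 at a smaller difference. These were Tbp at 0.46 (SE 0.076), Wwox at 0.34 (SE 0.097), Sil1 at 0.33 (SE 0.110), Atxn7 at 0.32 (SE 0.093) and Coq8a at 0.31 (SE 0.072) on the side of cerebellum, and Aptx at -0.38 (SE 0.094), Rubcn at -0.34 (SE 0.066) and Atxn10 at -0.15 (SE 0.058) on that of cortex. In all, 20 of 34 members had an adjusted p under 0.05, against 55.4% of all tested genes. Tbp passed the fold as well, at 0.51 without cerebellum control 1 and 0.50 without cortex control 2. At the other extreme Eef2 was at 1146, 1206 and 1188 CPM in the control cerebella and at 1226, 1146 and 1162 CPM in the cortices, a log2 difference of 0.00 with a 95% interval of -0.16 to 0.16. For 17 members the interval lay between -0.5 and 0.5. The 4 mitochondrial genes held no call in this comparison, with values from -0.09 to 0.31.

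**Figure D5:**
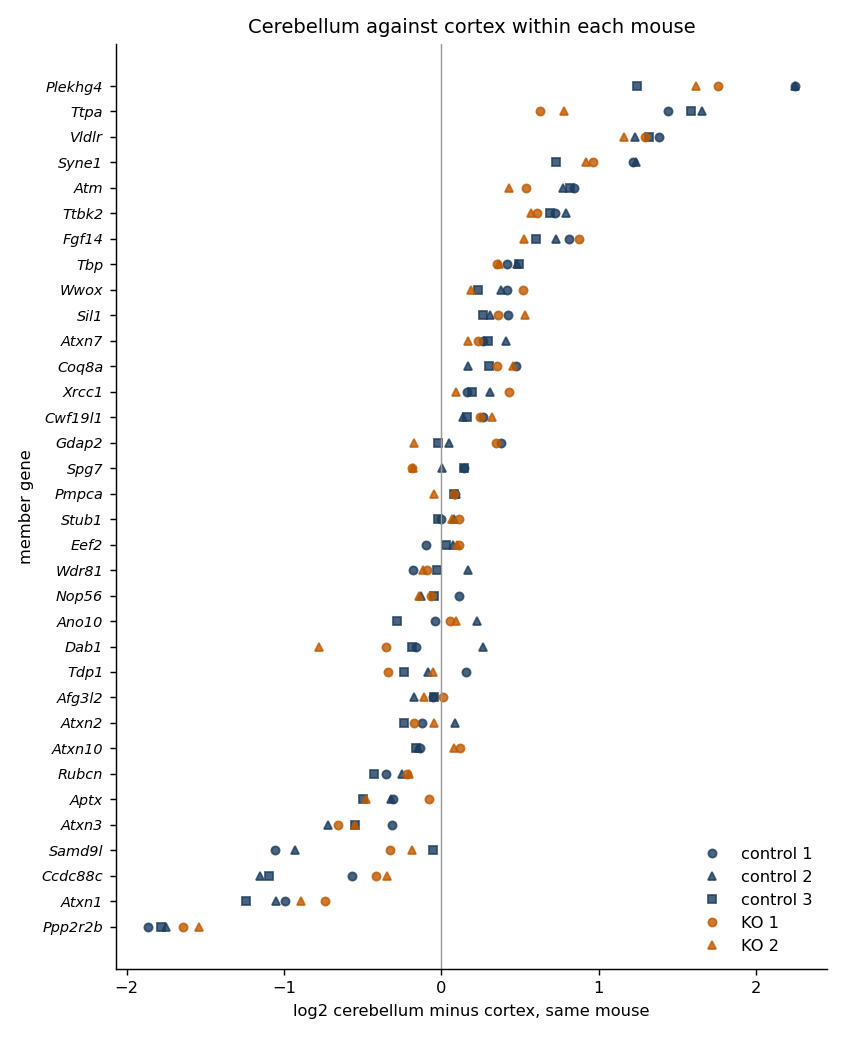
Log2 ratio of cerebellum to cortex CPM within each mouse (horizontal) for the 34 genes, ordered by the estimate in controls, with controls 1 to 3 in blue and KO 1 and KO 2 in orange. The mice lie close together for Vldlr and Ppp2r2b, and Samd9l spreads from -1.06 to -0.05 among the controls. The KO mice lie left of all controls for Ttpa, Dab1, Atm and other genes, and right of them for Ccdc88c, Atxn1, Atxn10 and other genes.

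Of the channel and signalling genes 15 of 20 were called higher in cerebellum and 1 was called lower, with a median of 1.05. Among the genes with the smallest p in the 2 comparison lists were Car8 at 7.20 and Fat2, a protocadherin of granule cells, at 10.73. Of 32 other ataxia genes 5 were called higher and 3 lower, with a median of 0.13. The Purkinje markers had a median of 3.18.

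The promoters of the members were read in the RefSeq sequences of GRCm38.p6, which held 36 windows for 27 of the 34 genes, each from 250 bases before to 50 after a start site. Ttpa, Wwox, Sil1, Ppp2r2b, Atxn1, Afg3l2 and Ccdc88c were not matched. The pair of letters CG, which reads the same on both strands, was counted because promoters dense in CG are typical of genes that many cell types use. A window with at least 10 CG was found for 25 of the 27 members, or 92.6%, against 78.0% of the 13151 tested genes with a window and 45.8% of all 27025 genes. The median was 18 CG per window in the members and also 18 in the tested genes. The 250 bases before the start site are shown for Eef2 (chr10:81176381-81176630, plus strand), the member with the highest level, for Atxn3 (chr12:101958244-101958493, minus strand), which was lower in cerebellum, and for Samd9l (chr6:3399572-3399821, minus strand), the member with the lowest level in cerebellum, with CG in capitals.
Eef2: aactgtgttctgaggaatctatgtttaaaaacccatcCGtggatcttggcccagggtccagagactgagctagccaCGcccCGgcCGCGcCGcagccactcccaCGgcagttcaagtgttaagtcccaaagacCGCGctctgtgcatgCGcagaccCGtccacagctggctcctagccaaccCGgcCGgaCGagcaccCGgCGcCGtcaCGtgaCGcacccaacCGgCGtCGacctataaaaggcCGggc
Atxn3: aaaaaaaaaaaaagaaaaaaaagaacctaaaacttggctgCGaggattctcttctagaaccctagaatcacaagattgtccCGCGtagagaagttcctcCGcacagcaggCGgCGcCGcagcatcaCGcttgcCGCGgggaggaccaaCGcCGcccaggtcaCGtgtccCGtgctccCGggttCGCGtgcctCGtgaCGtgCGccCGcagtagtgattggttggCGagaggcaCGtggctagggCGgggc
Samd9l: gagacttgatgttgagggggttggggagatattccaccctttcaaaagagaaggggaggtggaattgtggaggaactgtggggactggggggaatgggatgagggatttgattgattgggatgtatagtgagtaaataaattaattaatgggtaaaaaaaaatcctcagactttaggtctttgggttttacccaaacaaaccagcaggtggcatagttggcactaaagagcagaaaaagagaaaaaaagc
The runs hold 23 CG in Eef2, 24 in Atxn3 and 0 in Samd9l. Samd9l, with 1 CG in its whole window, and Xrcc1, with 7, were the exceptions among the 27.

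The members in which control 2 was the lowest control in both tissues were Atxn2, Dab1, Ttbk2, Atm, Spg7, Pmpca, Syne1, Wwox and Wdr81, and those in which it was the highest were Tbp, Atxn10, Nop56, Stub1, Ttpa, Sil1 and Gdap2. The median exonic length was 10173 bases for the first 9, 3488 bases for the second 7 and 5858.5 bases over all 34. The lengths overlapped, at 4282 to 40491 bases in the first 9 and 1937 to 13576 bases in the second 7. For Ttbk2 the log2 ratio of control 2 to the mean of controls 1 and 3 was -0.35 in cerebellum and -0.43 in cortex, and for Syne1, whose exons span 40491 bases, it was -0.28 and -0.54. For Pmpca, the shortest of the first 9 at 4282 bases, the ratio was -0.02 and -0.03. For Atxn1, in neither set and with 13914 bases, it was 0.00 and -0.06. The part of gene length in these deviations was not tested.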

How the data were processed

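Reads were paired-end and from strand-specific libraries. Per the file headers and the methods of the study, the authors aligned them to GRCm38 with STAR and deposited raw counts per gene from featureCounts of Subread 2.0.1, which is also named in the submitters' processing notes. A read pair overlapping several genes was counted for each, strand was not used, and multiply mapped reads were not counted, so overlapping genes share reads. The exonic overlap exceeded 15% for 4 members, Stub1 (42.3%, with Jmjd8), Ttbk2 (29.9%), Pmpca (20.4%) and Tbp (19.0%), and was 0 for 19. The tables held 81881 entries. The 55536 mouse genes were named from GENCODE M21, whose coordinates matched for 55450, and 26345 other entries, with 0.160% to 0.926% of the counts of a library, entered neither library sizes nor tests.

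Groups were taken from the labels. Counts were tested in edgeR 4.0.16 (R 4.3.3), by its quasi-likelihood F test, after filterByExpr with a count minimum of 10 and TMM scaling, with a fit per tissue for KO against control and a fit of 4 groups for the contrasts between tissues. Adjusted p-values are Benjamini-Hochberg values over all genes tested, and 95% intervals were computed from the log2 difference and its standard error (SE). Each library of a group is a mouse of its own. Calls needed an adjusted p under 0.05 and an absolute log2 difference over 0.5. CPM are TMM-scaled, and RPKM use the deposited exon length and the gene total. The biological coefficient of variation was 0.121 in cerebellum and 0.141 in cortex. Scripts were tested on simulated data. Both tissues of a mouse are paired by the animal numbers in the labels, and the deviations of the 2 tissues from their group means correlated over genes with r of 0.215 to 0.445, so the mouse was a block in an alternative fit.

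The members and lists were chosen with earlier results of these data known. All members are named with their levels or ranges, and single statistics were given for called members, those with an adjusted p under 0.05, the 4 lowest and 4 highest in a comparison, and those without overlap and with an absolute log2 difference over 0.25. At most 4 called genes of the comparison lists were taken, by smallest p, and some of these are not reported here. DESeq2 1.42.0, RLE and upper-quartile factors, no filter, blocks and leaving out single libraries were alternatives. A value within the Purkinje range was a description with no test.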

Additional observations from a re-analysis of the deposited data

How the results depend on the processing

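The count of called members was 0 in each tissue under every alternative tried (DESeq2, RLE and upper-quartile factors, no filter, the block and leaving out single libraries), and no alternative placed a member in the Purkinje range. In cortex the edgeR fit as reported called 0 of 19202 tested genes and missed Snx14 too, so a stable 0 there tells little. Between regions the count of members stayed between 10 and 12. For the channel and signalling genes in cerebellum, 7 as reported, the count was 3 to 10 when single libraries were left out. For the other ataxia genes in cerebellum, 0 as reported, it was 1 with DESeq2, 2 without a filter and 0 to 1 when single libraries were left out. Without a filter 1 channel and signalling gene was called in cortex. For the difference of the KO effects between tissues, fits without a filter called 1 member (Dab1, adjusted p 0.026 by edgeR), 10 channel and signalling genes and 1 other ataxia gene, and DESeq2 called 5 and 1 of the latter lists. That of the channel and signalling genes, 1 as reported, was 6 with the mouse as a replicate block and 1 to 3 when single libraries were left out. The fits without a filter had infinite prior degrees of freedom, and their p-values are not reliable. For this difference the block called 128 of all genes and DESeq2 204, against 21 as reported. The KO groups, which are other mice and not another processing, gave Atxn10 a difference between regions of 0.10 in place of -0.15. That was a change of sign. The cause was not tested in these cases. A block on the library number, which is shared by different mice, left 5 channel and signalling genes called in cerebellum, and same-numbered control and KO libraries correlated in their deviations with r of -0.05 to 0.14. With 3 controls and 2 KO mice, a single mouse weighs heavily, and Samd9l and Plekhg4, at low counts, had the widest intervals in both tissues.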
